A study of Homo sapiens with 6 samples.

Results

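The miRNAs numbered miR-6760 to miR-6895 are human miRNAs that entered the annotation late and mostly lie in introns of protein-coding genes. They were chosen by name alone, as every row of the deposited table whose miRNA number lies in that range, with or without a 5p or 3p suffix. This gave 264 of the 2588 listed mature miRNAs, from 134 of the 136 numbers, of which 130 were 5p arms, 131 were 3p arms and 3 had no arm in their name. Rows with 0 counts were kept. The other 2 numbers appeared only with a letter (miR-6769a and b, miR-6780a and b), and these 8 rows were outside the rule.

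The samples were Huh7 cells, a human hepatoma cell line, transfected with Lipofectamine 2000. In 3 samples (overexpression) the plasmid carried hsa_circ_0098181, and in 3 samples (control) it was the control plasmid, with all cells collected after 48 h. All 6 samples therefore went through transfection with a plasmid, and no untransfected cells were compared. The labels do not say whether the 3 samples of a group came from separate cultures, so the spread between them may be technical.

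A miRNA is a short RNA that guides an Argonaute protein to mRNAs, mainly by pairing through its seed, the bases 2 to 8. Most miRNA precursors are hairpins that Drosha cuts from a longer transcript and Dicer then cuts into a 5p and a 3p strand. A mirtron is a short intron that folds into such a hairpin after splicing, so that the spliceosome replaces Drosha, and in a tailed mirtron only 1 end of the hairpin is an end of the intron. Introns end in AG, preceded by a stretch rich in pyrimidines, and a product cut at the 3′ end of an intron carries these letters.

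Of the 113 3p members with a sequence, 85 had this form by position and letters, and they held 638 of the 1218 member counts. Mature sequences were taken from the RefSeq table (GRCh38), which held 224 of the 264 members (84.8%). The most abundant members with a sequence are printed 5′ to 3′ because their counts are described one by one, with the seed in capitals and, on 3p arms that end in AG, the last 2 bases in capitals.
miR-6868-3p: uUCCUUCUguugucugugcAG
miR-6803-3p: uCCCUCGCcuucucacccucAG
miR-6857-3p: uGACUGAGcuucuccccacAG
miR-6772-3p: uUGCUCCUgacucugugcccaca
miR-6764-5p: uCCCAGGGucuggucagaguug
miR-6761-5p: uCUGAGAGagcucgauggcag
miR-6874-3p: cAGUUCUGcuguucugacucuAG
None of these 7 seeds was the same as another of them. The most abundant members also include miR-6844, miR-6843-3p and miR-6842-3p.

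The opposite strands of the same precursors are shown next, since the comparison of arms rests on them.
miR-6868-5p: aCUGGCAGaacacugaagcagc
miR-6803-5p: cUGGGGGUggggggcugggcgu
miR-6857-5p: uUGGGGAUugggucaggccagu
miR-6772-5p: uGGGUGUAggcuggagcugagg
miR-6764-3p: uCUCUGGUcuuuccuugacAG
miR-6761-3p: uCCUACGCugcucucucacucc
miR-6874-5p: aUGGAGCUggaaccagaucaggc
Several of these 5p strands are rich in G, and the 3p strands are rich in C and U.

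Every member with a placed sequence lay in an intron. All 224 members (100%) were inside an intron of a gene on the same strand in GENCODE release 29 (GRCh38), compared with 1296 of the 2057 other miRNAs with a sequence (63.0%). At 51 of the 224 members the position was also an exon of another transcript. The shortest intron that held a member had a median length of 348 bases, with a range from 74 to 9998, and that of the other intronic miRNAs had a median of 8071 bases.

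The 3p members sat at the 3′ ends of these introns. Of 113 3p members with a sequence, 85 (75.2%) ended exactly on the last base of an intron and 96 (85.0%) ended within 2 bases of it. Among 682 3p miRNAs of the rest of the table, 72 (10.6%) ended on the last base. The trait was not particular to the members, since these 72 include 8 of 10 3p arms of classical mirtrons and 44 of 106 3p arms (41.5%) of other miRNAs numbered 5000 or above. The classical mirtrons are here the miRNAs commonly cited as such (miR-877, miR-1224 to miR-1229 and miR-1236 to miR-1238, 20 rows). At the other edge, 12 of 109 5p members (11.0%) started within 10 bases of the first base of an intron, compared with 18 of 670 other 5p miRNAs (2.69%).

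By both edges, 81 of the 103 precursors with both arms placed (78.6%) had only the 3p arm within 2 bases of an intron end, which is the form of a tailed mirtron with extra intron before the hairpin. Both arms were at the edges in 6 precursors (5.83%), the form of a classical mirtron, in introns with a median of 89.5 bases. Only the 5p arm was at an edge in 5 precursors, and 11 met neither the 2-base cut for the 3p arm nor the 10-base cut for the 5p arm. These 11 were mostly close to an intron end, with the 3p arm 3 to 7 bases from it except for miR-6840, at 32 bases. Among the 5 with only the 5p arm at an edge, miR-6800 and miR-6891 had a 3p arm 3 and 4 bases from an intron end. The classes therefore depend on the cuts. Of the 10 5p arms of classical mirtrons, 9 began within 10 bases of the intron start. These are annotations of position, and no cleavage was measured in these cells.

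The letters followed the position. All 85 of the 3p members that ended on the last intron base ended in AG, and of the 28 others 0 ended in AG. Among the other miRNAs 98 of 682 3p miRNAs (14.4%) ended in AG, among them 8 of 10 in the classical mirtrons and 46 of 106 (43.4%) in the other miRNAs numbered 5000 or above. The 3p members held 43.8% ± 9.42 C (SD, n = 113 sequences) and 71.8% ± 8.99 pyrimidines, compared with 27.4% ± 12.8 and 54.6% ± 14.2 in 682 other 3p miRNAs. The 5p members held 46.8% ± 9.62 G (SD, n = 109), compared with 30.1% ± 12.8 in 670 other 5p miRNAs. A run of 4 G, searched as GGGG in the mature strand only, was found in 52 of 109 5p members (47.7%) and in 86 of 670 others (12.8%). The classical mirtrons went further in the same direction, with 53.4% ± 6.94 C and 78.9% ± 8.61 pyrimidines in 10 3p arms, 57.9% ± 6.24 G in 10 5p arms, and GGGG in 7 of these. The other miRNAs numbered 5000 or above lay between the members and the rest of the table. Their 106 3p arms held 34.0% ± 14.6 C and 61.2% ± 16.0 pyrimidines. Their 110 5p arms held 37.9% ± 14.8 G, with GGGG in 31 (28.2%).

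Among the placed precursors, 4 host genes held more than 1. PPP6R1, which encodes a regulatory subunit of a protein phosphatase, held 3 precursors, and KDM5C, a histone demethylase, CAMTA2, a transcriptional activator, and GTF2F1, a general transcription factor, held 2 each. The precursors of miR-6859, miR-6770 and miR-6862 had several loci, 4, 3 and 2 respectively, so reads of these 6 members cannot be given to 1 locus. The other members with a sequence had 1 locus each. None of the 224 members with a sequence came within 2 edits of another listed miRNA with a sequence, and the smallest distance was 4.

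The members were at the lower limit of the measurement. The libraries held 7144798 to 10786295 counts, so that 1 count was worth 0.0927 to 0.140 TPM (here the count divided by the library total and scaled to 1000000 counts, with no correction for length). The limit taken here for a count of 0 was 3 counts, worth 0.278 to 0.420 TPM, and it is a chosen value rather than a strict bound. All 264 members together held 1218 of 51345062 counts, or 23.7 TPM. miR-122-5p, the abundant hepatocyte miRNA, alone had a mean of 322041 TPM. Counts carry no molecular identifiers, so the counting limits cover counting error only.

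In all, 129 of the 264 members (48.9%) had at least 1 count in some library, and 135 had 0 counts in all 6. Outside the range, 1237 of 2324 miRNAs (53.2%) were counted, but this includes 818 rows without an arm in their name, of which 256 (31.3%) were counted. Arm by arm, 37.7% of the 5p members were counted beside 62.8% of other 5p miRNAs, and 60.3% of the 3p members beside 67.5% of other 3p miRNAs. The level of the signal was also lower, since 29 members (11.0%) reached 10 counts over all libraries compared with 800 others (34.4%), and 5 members (1.89%) had a mean above 1 TPM compared with 560 others (24.1%). The median total of a counted member was 4 counts, and that of a counted miRNA in the rest was 33 counts. Of the 129, 31 rested on 1 count, 35 were seen in 1 library, and 20 were seen in all 6.

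**Figure D1:**
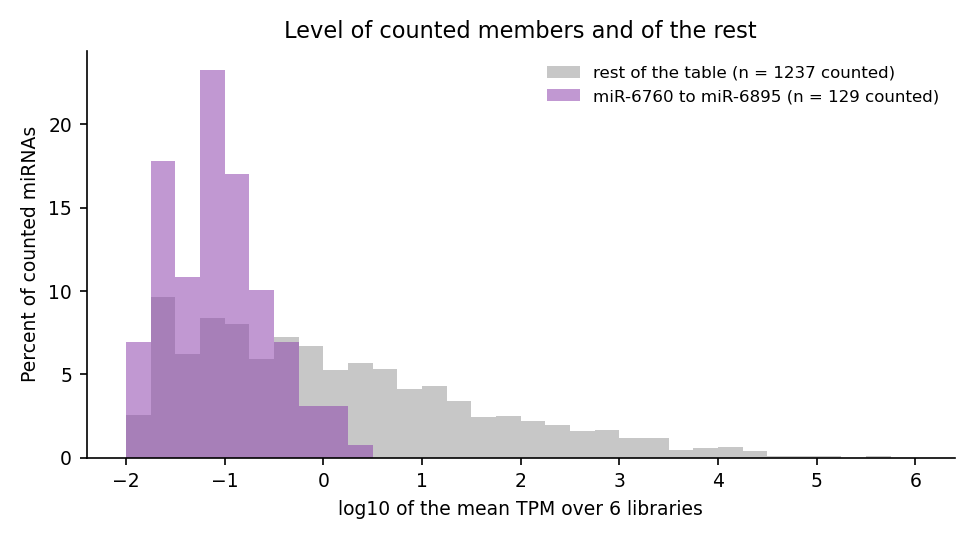
Distribution of the log10 mean TPM over 6 libraries (x axis) of the counted members (n = 129) and of the counted miRNAs of the rest of the table (n = 1237), each as a percent of its own number (y axis). The members end at a mean of 1.93 TPM, while the rest run on to 322041 TPM, and rows with 0 counts are not drawn.

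Set beside related lists, fewer members reached 10 counts, with 11.0% of the members, 7 of the 20 classical mirtrons and 18.1% of the other miRNAs numbered 5000 or above. The 20 classical mirtron rows held 1626 counts, with 13 of 20 counted (65.0%) and a highest mean of 16.4 TPM. The latter list, of 370 miRNAs, held 6172 counts, with 147 counted (39.7%) and a highest mean of 19.4 TPM. It too includes rows without an arm in their name. By arm, 45.4% of its 5p rows and 56.9% of its 3p rows were counted, beside 37.7% and 60.3% of the members. The highest member mean was 1.93 TPM, which placed miR-6868-3p at rank 489 of the table. These lists are compared as descriptions without a test.

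The 3p arms held most of the counts. In the table, 79 of 131 3p members (60.3%) were counted with 885 counts, and 49 of 130 5p members (37.7%) with 251 counts. Among the 93 precursors with both arms listed and at least 1 count, the 3p arm was higher in 66 (71.0%), the 5p arm in 24, and 3 were tied. Of these precursors 44 had counts on the 3p arm only, 15 on the 5p arm only, and 34 on both. In the 29 precursors with at least 10 counts the 3p arm was higher in 23, the 5p arm in 4, and 2 were tied.

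The rest of the table did not lean this way, with the 3p arm higher in 280 of 552 counted pairs (50.7%). The other miRNAs numbered 5000 or above did, with the 3p arm higher in 69.9% of 73 pairs. Among the members, counts are given by the 3p end as a description without a test. Of the 85 3p members that ended in AG, 56 were counted (65.9%, 638 counts), and of the 28 with another end 14 were counted (50.0%, 104 counts). Among 3p members with at least 10 counts and a sequence, 18 of 20 ended in AG. A first base of U was held by 44 of 70 counted 3p members (62.9%) and by 11 of 43 3p members with 0 counts (25.6%).

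Per library the 3p share of the counts with an arm was 79.4%, 80.2% and 73.6% in overexpression replicates 1 to 3. It was 78.8%, 75.8% and 79.7% in control replicates 1 to 3. The groups overlapped, with means of 77.8% ± 3.62 and 78.1% ± 2.07 (SD, n = 3 each), so the lean to the 3p arm was present in each library and the difference between groups was smaller than the spread.

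The summed level of the members was similar in all libraries. The 264 members summed to 22.8, 21.3 and 23.4 TPM in the overexpression replicates and 25.5, 25.2 and 23.5 in the control replicates. The means were 22.5 ± 1.11 and 24.7 ± 1.08 TPM (SD, n = 3 each). The groups just missed overlapping, at 23.4 for the highest overexpression and 23.5 for the lowest control library. When the totals were scaled by TMM factors, an alternative chosen after seeing the data, the values were 22.9, 23.1 and 24.2 in overexpression and 25.4, 24.5 and 21.6 in control, and the groups overlapped. The number of members seen at an equal depth of 7144798 counts was 49.6 to 65.4 in overexpression and 58.0 to 66.3 in control.

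The libraries themselves were not all alike. Control replicate 3 stood apart from the other control libraries, with a chi-square per degree of freedom of 157 and 121 against them, compared with 18.2 to 35.3 among all other pairs within a group. The hepatocyte miRNAs (miR-122-5p and -3p, miR-192-5p, miR-194-5p) summed to 346875 to 384122 TPM and were present in every library, as was checked against the labelled cell type. The blood markers summed to 11.6 to 13.2 TPM in overexpression and 15.8 to 18.7 TPM in control. The stromal markers summed to 119 to 127 TPM in overexpression and 128 to 138 TPM in control. By library totals the groups overlapped in neither list. These sums were not scaled by TMM factors, with which the groups of the member sum did overlap. No background share of such sums without overlap was taken. The muscle markers summed to 1.45 to 2.24 TPM and the neuronal markers to 98.6 to 149 TPM over all libraries, and there the groups overlapped. Of all these markers, 0 were at 0. Their part in the values of the members was not tested.

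The 10 most abundant members held 41.8% to 51.1% of the member counts of a library. miR-6868-3p, the highest, lies in an intron of EXOC7, which encodes a subunit of the exocyst that tethers secretory vesicles, at chr17:76098019-76098039 on the minus strand, at the very end of an intron of 3252 bases. It had 12, 22 and 19 counts in the overexpression replicates and 17, 13 and 15 in the control replicates. These are 2.13 ± 0.564 and 1.72 ± 0.327 TPM (SD, n = 3 each). The groups overlapped, and its 5p partner, printed above, had 0 counts in all libraries.

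miR-6803-3p lies at chr19:55245186-55245207 (minus strand), at the end of a 79-base intron of PPP6R1. It had 7, 8 and 12 counts in overexpression and 9, 19 and 15 in control, or 1.09 ± 0.312 and 1.71 ± 0.758 TPM. Control replicates 2 and 3 were the highest libraries by TPM and control replicate 1 was the lowest of all 6. Its G-rich 5p partner was at 0 counts.

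miR-6857-3p lies at chrX:53405673-53405693 (minus strand), at the end of a 98-base intron of SMC1A, which encodes a subunit of cohesin. It had 4, 15 and 4 counts in overexpression and 21, 9 and 17 in control, or 0.918 ± 0.739 and 1.79 ± 0.685 TPM. The groups overlapped through overexpression replicate 2, which lay above control replicate 2. Its 5p partner had 3 counts in total.

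miR-6844, which is named without an arm, had 7, 8 and 16 counts in overexpression and 16, 25 and 10 in control, or 1.25 ± 0.589 and 1.92 ± 0.832 TPM. The highest overexpression library lay between the control libraries. miR-6843-3p had 18, 10 and 6 counts in overexpression and 20, 6 and 7 in control, and replicate 1 was the highest library in both groups. miR-6842-3p was lower and steadier, with 7, 5 and 6 counts in overexpression and 12, 4 and 7 in control.

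miR-6772-3p ends 1 base before the end of an intron of KIFC3, which encodes a kinesin motor, at chr16:57772290-57772312 on the minus strand. Its sequence ends in ACA rather than AG, and it was the steadiest of the 10 against counting error, with 6, 8 and 6 counts in overexpression and 12, 9 and 5 in control. Its 5p partner had 1 count in total. The spread of its counts over the groups was 0.274 times that of counting error alone.

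In 2 of the 10, the 5p strand was the one counted most. miR-6761-5p, from an intron of ALDH2, the mitochondrial aldehyde dehydrogenase, at chr12:111799839-111799859 (plus strand), had 2, 6 and 8 counts in overexpression and 6, 3 and 4 in control, and its 3p partner had 0 counts. miR-6764 lies in an intron of YY1, a zinc finger transcription factor, with the 5p arm at chr14:100277362-100277383 and the 3p arm at chr14:100277397-100277417, both on the plus strand. The position of both arms is also an exon of another transcript. The 5p arm of miR-6764 had 4, 9 and 2 counts in overexpression and 8, 8 and 1 in control. Its 3p arm had 4, 4 and 5 in overexpression and 5, 3 and 2 in control. Both arms were therefore counted in every library, and the 5p arm varied more.

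miR-6874-3p, at the end of an intron of RNF216, a ubiquitin ligase, at chr7:5711840-5711862 (minus strand), had 10, 1 and 2 counts in overexpression and 4, 9 and 2 in control. In overexpression, 10 of its 13 counts came from replicate 1. Its counts varied 4.29 times more than counting error, the most of these 10 members.

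**Figure D2:**
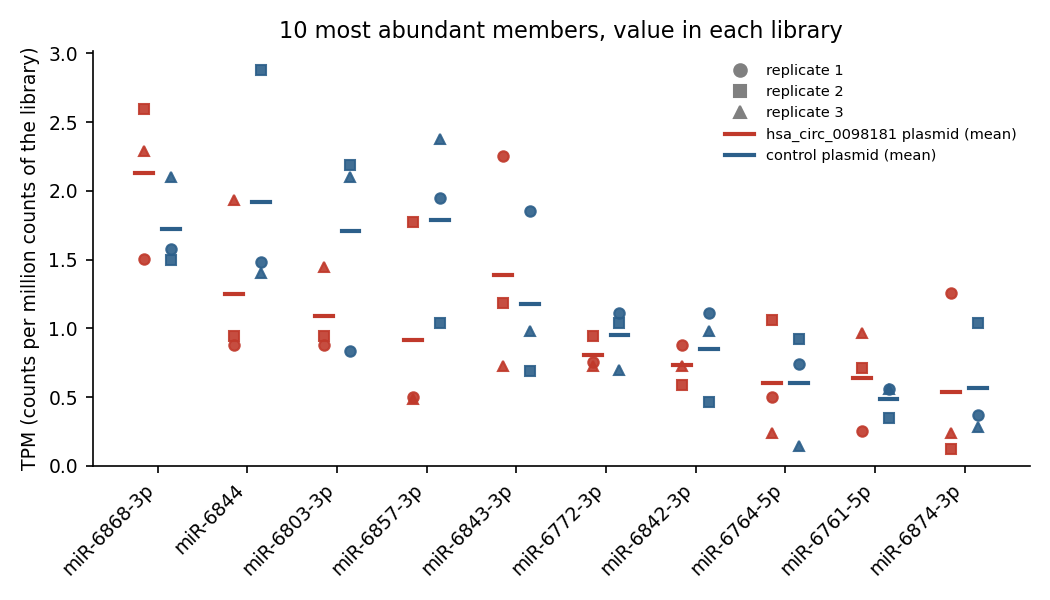
TPM in each library (y axis) of the 10 members with the highest mean, with overexpression libraries in red, control libraries in blue, a symbol for each replicate and a line at the mean of 3 libraries. The red and blue points overlap for each of the 10 members, and all points lie below 3 TPM.

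Over the 29 members with at least 10 counts, the spread between replicates was 1.42 times that of counting error, compared with 1.46 times for 311 other miRNAs with 10 to 98 counts. These are pooled values, and the medians were 0.986 and 1.26, at median totals of 22 and 28 counts. Below the first 10 and beside miR-6764-3p, the next members with a sequence were again 3p products that end in AG, and they are shown because they come from introns of well-known genes (chosen after their values were seen).
miR-6870-3p: gCUCAUCCccaucuccuuucAG
miR-6855-3p: aGACUGACcuucaaccccacAG
miR-6777-3p: uCCACUCUccuggcccccAG
miR-6866-3p: gAUCCCUUuaucuguccucuAG
miR-6895-3p: uGUCUCUCgcccuuggccuuAG
They had 25, 23, 22, 23 and 17 counts in total, in introns of JAG1, a Notch ligand, USP20, a deubiquitinase, SREBF1, which encodes a regulator of lipid synthesis, CASC3, an exon junction protein, and KDM5C. miR-6777-3p ranged from 0 counts in overexpression replicate 2 and control replicate 2 to 8 counts in overexpression replicate 1. In the same range of counts lay 5p arms that had no sequence to show, miR-6783-5p with 20 counts and miR-6866-5p with 17.

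The question of the comparison was which miRNAs differ between cells with the plasmid carrying hsa_circ_0098181 and cells with the control plasmid. Counts of all 2588 miRNAs were fitted together with edgeR, and a miRNA was tested when it reached 1.19 TPM in at least 3 libraries. Of the 552 miRNAs that passed, 4 were members, miR-6868-3p, miR-6844, miR-6803-3p and miR-6857-3p. The other 260 members had too few counts for a test, with miR-6843-3p the most abundant of them.

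No member passed the test, with 0 of 4 called at an adjusted p under 0.05 in the quasi-likelihood test of edgeR (Benjamini-Hochberg adjustment over 552 miRNAs), where 0% of all tested miRNAs were called. At an unadjusted p under 0.05, 0 of 4 members were called beside 9.06% of all tested miRNAs. In 0 of 4 members did the groups not overlap, beside 15.4% of all tested miRNAs. DESeq2 and limma also called 0 members at an adjusted p under 0.05. In RNA from whole cultures, fewer cells with a miRNA and less of it per cell cannot be told apart.

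The 4 estimates were wide. For miR-6857-3p the log2 fold change of overexpression over control was -0.81 (SE 0.52, 95% interval -1.92 to 0.31, edgeR adjusted p = 0.617), and it was the smallest p of the 4. For miR-6844 it was -0.50 (SE 0.43, interval -1.44 to 0.43, edgeR adjusted p = 0.698) and for miR-6803-3p -0.47 (SE 0.44, interval -1.43 to 0.49, edgeR adjusted p = 0.708). For miR-6868-3p it was 0.44 (SE 0.34, interval -0.29 to 1.18, edgeR adjusted p = 0.653), so that a value of 0.818 to 2.26 times the control was within its interval. The intervals hold changes of more than 2-fold lower for 3 of the members and more than 2-fold higher for miR-6868-3p. A difference was therefore not detected, which does not show that it is absent. The parts of depth, replicate spread and number of libraries in this were not tested.

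The median log2 fold change of the 4 was -0.49, with 3 lower and 1 higher, beside 0.0038 over all 552 miRNAs. The 3 lower members reached the filter cut in only 3 or 4 libraries, more of them control than overexpression. With no filter the median over 129 members was 0.036, and the part of the filter in the lower median was not tested. With 1 library left out, the median of the same 4 members lay between -0.69 (without control replicate 1) and -0.16 (without control replicate 2). Overexpression replicate 2 held 15 of the 23 overexpression counts of miR-6857-3p. Without that library its log2 fold change was -1.74 (edgeR adjusted p = 0.847), and its p before adjustment was under 0.05. Without control replicate 3, the library that stood apart, 0 members and 56 of all miRNAs were called, and the median of the same 4 members was -0.50.

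**Figure D3:**
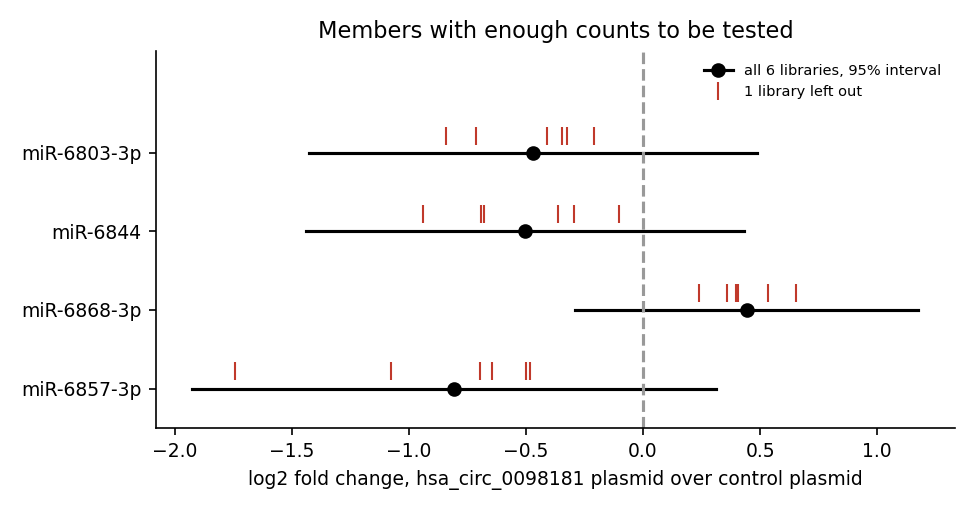
Log2 fold change of overexpression over control (x axis) for the 4 members with enough counts, with the point and the line giving the edgeR estimate from all 6 libraries and its 95% interval, and red ticks giving the estimates with 1 library left out. All 4 lines cross 0, and the ticks of miR-6857-3p run from -1.74 to -0.48.

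Of the 29 members with at least 10 counts, the TPM of the groups did not overlap in 2, miR-6764-3p and miR-6797-3p (named after their values were seen). Neither passed the filter. The 15.4% without overlap was taken over the 552 miRNAs that passed it, on values scaled by TMM factors. It is therefore not a like background for these 2, and no share was taken over miRNAs of similarly low counts. miR-6764-3p had 0.501, 0.472 and 0.603 TPM in overexpression and 0.464, 0.346 and 0.280 TPM in control, which are 4, 4 and 5 counts against 5, 3 and 2. miR-6797-3p, from an intron of RPS19, a ribosomal protein gene, had 2, 2 and 3 counts against 1, 2 and 1. For miR-6764-3p the nearest libraries of the groups were at 0.472 and 0.464 TPM, with 4 and 5 counts. For miR-6797-3p the nearest libraries were replicate 2 of each group, with 2 counts each. They differed only through the library totals, 8469016 in overexpression and 8677214 in control.

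The members shared few seeds. The 224 sequences held 214 distinct seeds, and 10 seeds were each held by 2 members. None of the 3 tested members with a sequence shared its seed with another member that had one. Of the pairs with the same seed, the one with the most counts is shown, which also has the same 3′ end.
miR-6764-3p: uCUCUGGUcuuuccuugacAG
miR-6824-3p: uCUCUGGUcuugccaccccAG
They had 23 and 11 counts, and miR-6824-3p lies in an intron of SLC26A6, an anion exchanger gene, at chr3:48633636-48633656 on the minus strand. By whole sequence they were 5 edits apart. miR-6855-3p and miR-6857-3p, with 23 and 70 counts, were closer at 4 edits, but their seeds differ in the last base.

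More members, 53 of 224, shared a seed with a miRNA outside the range. The most abundant such partner had more counts than the member in 29 of the 53, fewer in 9 and as many in 1, and both were at 0 in 14. The examples shown, chosen after their values were seen, include 3 with a more abundant partner and 2 with a less abundant one.
miR-6838-5p: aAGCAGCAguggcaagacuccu
miR-16-5p: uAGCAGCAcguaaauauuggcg
miR-6866-3p: gAUCCCUUuaucuguccucuAG
miR-188-5p: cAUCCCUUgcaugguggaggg
miR-6874-3p: cAGUUCUGcuguucugacucuAG
miR-148b-5p: aAGUUCUGuuauacacucaggc
miR-6764-5p: uCCCAGGGucuggucagaguug
miR-1915-3p: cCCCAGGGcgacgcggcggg
miR-6855-3p: aGACUGACcuucaaccccacAG
miR-4513: aGACUGACggcuggaggcccau
miR-6838-5p, from an intron of POLM at chr7:44073407-44073428 (minus strand), had 0 counts while miR-16-5p had 7640356. miR-6866-3p had 23 counts beside 1846 of miR-188-5p, and miR-6874-3p had 28 beside 272 of miR-148b-5p. In the other direction, miR-6764-5p had 32 counts beside 3 of miR-1915-3p, and miR-6855-3p had 23 while miR-4513 had 0. A shared seed is a property of the letters, and no target was measured here.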

How the data were processed

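Counts and TPM of 2588 mature human miRNAs in 6 libraries were used. The counts deposited by the authors are reads per miRNA without normalization. The TPM deposited by the authors equal the count divided by the library total and scaled to 1000000, to within 0.00303. The submitters' processing notes name TopHat2 2.0.9, Bowtie and the build hg38, and the miRNA annotation and the handling of reads with several matches are not given in the sources used here. Counts were fitted with edgeR 4.0.16 in R 4.3.3 (filterByExpr at its minimum count, 10, and minimum total, 15, then TMM and a quasi-likelihood test of the group, two-sided, Benjamini-Hochberg adjustment over all tested miRNAs, threshold 0.05) and the script was tested on simulated data. DESeq2 1.42.0 and limma 3.58.1 were alternatives. Loci were placed in introns of GENCODE release 29, small RNA genes excluded as hosts. Spread over counting error is the chi-square of the counts within groups per degree of freedom. Marker lists were the hepatocyte, blood, muscle, neuronal and stromal miRNAs. The members and lists were chosen with earlier results of these data known. The rule named the 10 members with the highest mean TPM, members past the threshold or else the 4 tested with the smallest p, pairs with both arms past the filter (0 were), and the most abundant member sharing a seed with a tested one.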

Additional observations from a re-analysis of the deposited data

How the results depend on the processing

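The number of members past the threshold was 0 under all 8 alternatives (library totals without factors, upper-quartile factors, DESeq2, limma on log2(CPM + 1), every counted miRNA tested, 10 or more counts required in all samples, totals that leave out miR-122-5p, and the replicate number as a block) and with each of the 6 libraries left out in turn. At an unadjusted p under 0.05 it was 0 in the same settings except without overexpression replicate 2, where it was 1 of 5 tested members. The share over all tested miRNAs was 9.06% in the fit of all 6 libraries and was not taken in that fit, so this 1 cannot be set against it. The 4 tested members had a median log2 fold change of -0.49. It was 0.036 over 129 members with no filter and 0.44 where 10 counts were required in all samples, which left 1 member. It lay between -0.60 and -0.29 under the other alternatives. With 1 library left out it lay between -0.69 and -0.10, over 5 tested members in 5 of these fits and 4 in the other, and between -0.69 and -0.16 over the same 4 members. The share of the members differed by -2.26 TPM (overexpression minus control), by -0.42 with totals scaled by TMM factors, an alternative chosen after seeing the data, and by -2.88 to -1.64 with 1 library left out. With the replicate number as a block the median was -0.50, and the block changed no call. Same-numbered samples did not deviate together in each pair (r = -0.20, 0.19 and 0.12 across 308 miRNAs), and 1 of the 3 pairs correlated best with its own number, so numbers were not taken as pairs. Without overexpression replicate 3 the log2 fold change of miR-6844 was -0.94, and without control replicate 2 it was -0.10. None of the 4 tested members changed direction in the fits that tested it. Over all miRNAs, 0 were called, and 3 with the library size alone, 6 with no filter and 56 without control replicate 3; the causes were not tested. The balance of arms over tested pairs was not run, since no pair had both arms past the filter. The members outside the test had few counts. For scale, 3 counts were worth 0.278 to 0.420 TPM, and 5 members had a mean above 1 TPM.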

Other observations

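Of the 8 lettered rows outside the rule, miR-6780b-3p was the highest, with 7, 7 and 6 counts in overexpression and 10, 4 and 2 in control. The 40 members without a sequence in the RefSeq table held 295 of the 1218 member counts, and 20 of them were counted.

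The 6 precursors with both arms at intron edges had 78 counts on 3p arms and 10 on 5p arms, and the 81 with only the 3p arm at an edge had 589 and 152. The 11 precursors that met neither cut, most of them with a 3p arm 3 to 7 bases from an intron end, had 22 counts on 3p arms and 17 on 5p arms. The 3p arm was counted in 6 of these 11. The 5p members with a run of 4 G were counted in 17 of 52 (32.7%, 48 counts), and those without in 22 of 57 (38.6%, 133 counts). miR-6788-5p, from an intron of PIEZO2, an ion channel gene, had 2 counts, while miR-30c-1-3p, which holds the same seed, had 1539.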
